A study of Mus musculus with 6 samples.

Results

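The cytosolic DNA sensing pathway and the nucleases that limit its ligands were examined in whole brain of adult mice that lack ADAR1 editing. The set comprised 10 genes, chosen by symbol: the sensor *Mb21d1* (cGAS), the adaptor *Tmem173* (STING), the kinases *Tbk1* and *Ikbke*, the transcription factor *Irf3*, the nuclease *Trex1*, the deoxynucleotide hydrolase *Samhd1*, and the RNase H2 subunits *Rnaseh2a*, *Rnaseh2b* and *Rnaseh2c*. All 10 were found among the 37310 genes of the count table. Of these, 7 passed the expression filter (2 or more CPM, counts scaled per 1000000 of the library total, in every library of at least 1 genotype), 2 were tested only after a more permissive filter, and 1, *Trex1*, could not be tested.

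Ribosome-depleted RNA was sequenced from 3 *Adar1* E861A/E861A *Ifih1*-/- and 3 *Adar1*+/+ *Ifih1*-/- males, all 12 weeks old and of the C57BL/6 strain, with 1 library per animal. The E861A allele is a germline point mutation that removes the editing activity of ADAR1, and animals of both genotypes also lack *Ifih1*, the gene of MDA5, a cytosolic sensor of double-stranded RNA. The effect of E861A in animals that retain MDA5 was therefore not measured in these libraries. The 2 genotypes are referred to as E861A and *Adar1*+/+ brain.

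cGAS binds DNA in the cytosol and makes the cyclic dinucleotide cGAMP, which binds STING in the membrane of the endoplasmic reticulum. STING moves to the Golgi and recruits TBK1, or the related kinase IKK-epsilon encoded by *Ikbke*, and the kinase phosphorylates IRF3, which enters the nucleus and induces interferon beta. TREX1 degrades DNA, SAMHD1 depletes deoxynucleotides, and RNase H2 removes ribonucleotides from DNA and cuts RNA paired with DNA. Mutations in the human counterparts of *Trex1*, *Samhd1* and the RNase H2 genes cause Aicardi-Goutieres syndrome, an inflammatory disease of the brain with raised interferon, as do mutations in *ADAR* and *IFIH1*. The comparison addressed whether transcripts of this DNA sensing arm differ in brain without ADAR1 editing when the main RNA sensor of unedited RNA is absent.

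The E861A libraries held 26853488 to 36285305 counts and the *Adar1*+/+ libraries 35702138 to 38076753. *Adar* itself did not differ by the test (log2 fold change 0.10, 95% interval -0.13 to 0.33), which a point mutation need not change. *Ifih1*, disrupted in all 6 animals, retained 38 to 56 counts per library, so its count did not check the label. E861A replicate 1 stood apart: the summed level of 6 pituitary hormone transcripts was 440 CPM in it and 1.97 to 3.64 CPM in the other 5 libraries. *Mb21d1*, *Tmem173*, *Ikbke*, *Irf3*, and the ratios *Ikbke* over *Tbk1* and *Tmem173* over *Mb21d1*, are given below with and without it.

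None of the 7 members that passed the filter was called between genotypes by edgeR's quasi-likelihood test (adjusted p under 0.05), where 0.506% of the 13649 genes tested were called. None of the 7 reached an unadjusted p under 0.05 either, against 9.01% of all tested genes. The likelihood ratio test, DESeq2 and limma-voom also called 0 of the 7, and none gave a member an unadjusted p under 0.05. When same-numbered libraries were blocked as pairs, the calls over all genes went from 69 to 158, again with 0 of the 7 members. In that quasi-likelihood fit *Irf3* had an unadjusted p of 0.0455, where 15.2% of genes were under 0.05. *Irf3* was also under 0.05 without a filter (7.77% of genes) and without E861A replicate 3 (5.54%). *Ikbke* was under 0.05 without E861A replicate 2 (14.3% of genes). The median log2 fold change over the 7 members was 0.05, beside -0.001 over all tested genes, and 5 of 7 were above 0. In bulk tissue, a change in the number of cells of a type and a change in RNA per cell cannot be told apart.

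**Figure D1:**
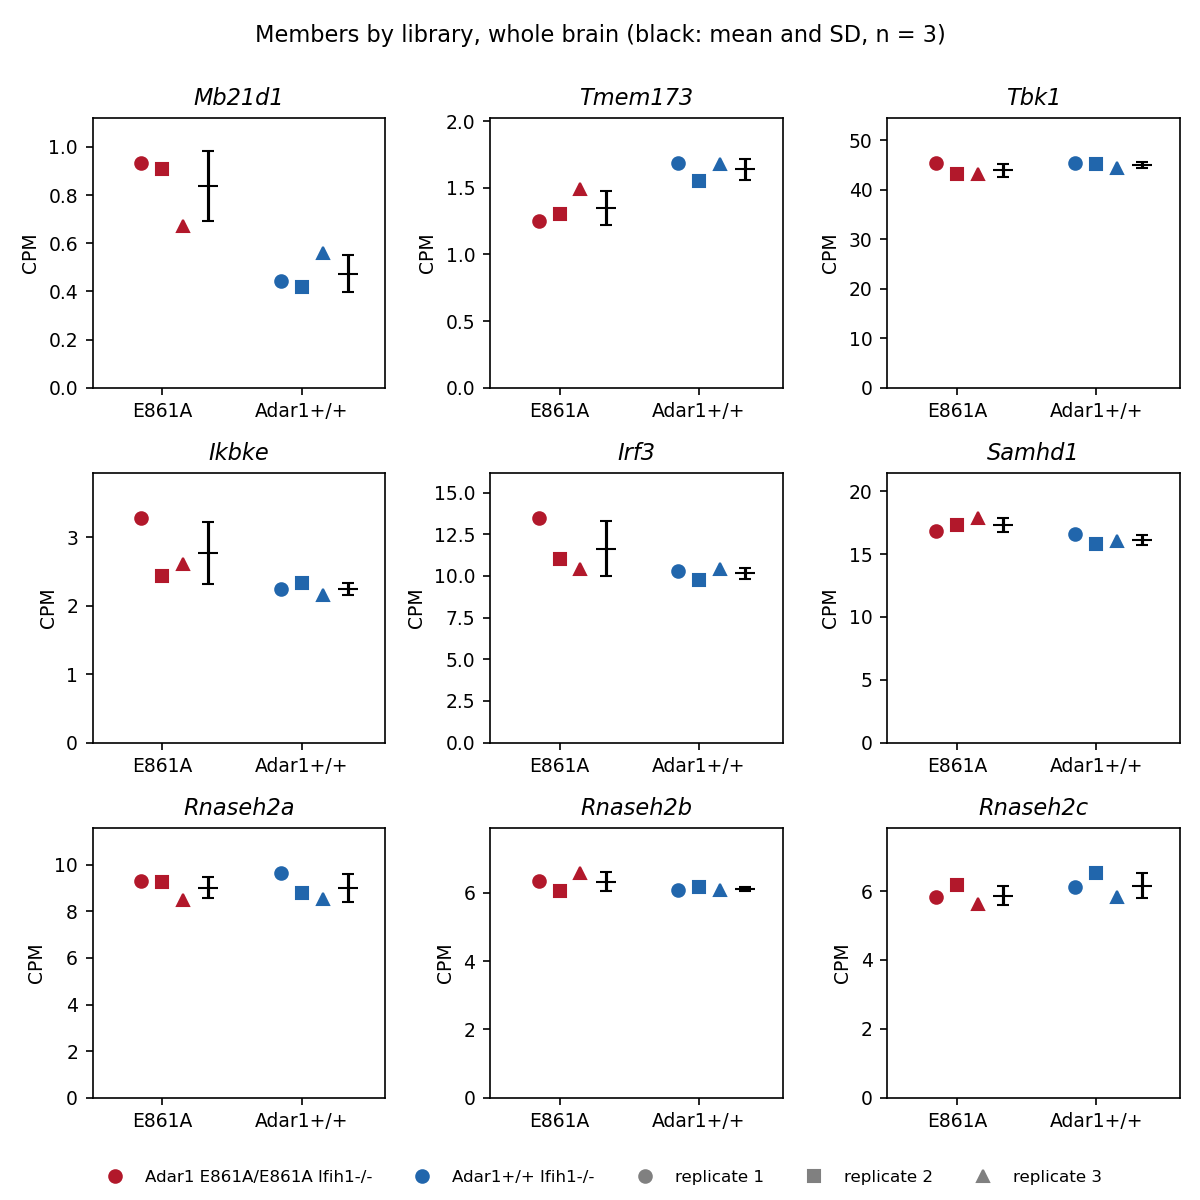
CPM of 9 members in each library (y axis, from 0), by genotype (x axis); marker shapes give the replicate number, and black bars the mean and SD of 3 libraries. *Mb21d1*, *Ikbke* and *Samhd1* are higher in every E861A library than in any *Adar1*+/+ library, *Tmem173* is lower, and the other 5 overlap.

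The sensor and the adaptor had the lowest CPM of the 9 members with counts, and their differences between genotypes had opposite signs, without a call. *Mb21d1* (ENSMUSG00000032344; mm9 chromosome 9, 78278333 to 78291044, minus strand), the DNA sensor, had 27, 33 and 18 counts in E861A replicates 1 to 3 and 16, 16 and 20 counts in *Adar1*+/+ replicates 1 to 3. Scaled to library totals these were 0.935, 0.909 and 0.670 CPM against 0.442, 0.420 and 0.560 CPM. All 3 E861A libraries lay above all 3 *Adar1*+/+ libraries.

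The mean *Mb21d1* level was 0.838 ± 0.146 CPM in E861A brain and 0.474 ± 0.0753 CPM in *Adar1*+/+ brain (SD, n = 3 each). The log2 fold change was 0.83 ± 0.27 (SE), with a 95% interval of 0.26 to 1.39, in the quasi-likelihood fit of the 19366 genes kept by edgeR's filterByExpr. Its unadjusted p was 0.00702 and its adjusted p 0.339, so it was not called. The difference is therefore reported as failing the correction over all genes. Its direction was shared by 3 of 3 same-numbered pairs, which follows from the lack of overlap. Pooled over libraries, the exact Poisson intervals were 0.670 to 1.06 CPM (78 counts) and 0.353 to 0.620 CPM (52 counts), which cover counting error only. Without E861A replicate 1, the log2 fold change was 0.77.

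In that fit, 0.568% of genes were called, and 0 of the 2 members read from it. DESeq2, the likelihood ratio test and limma-voom called neither of them, and each gave *Mb21d1* an unadjusted p under 0.05. *Mb21d1* was the 1 member of 9 with an unadjusted p under 0.05, where 8.13% of all genes in the fit had one. Of the 5717 genes tested only there, 11.7% did not overlap between genotypes, and neither of the 2 members, *Mb21d1* and *Tmem173*, overlapped.

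*Mb21d1*, itself not called, lies on a stretch of chromosome 9 that holds called genes. Of the 69 genes called, 8 lay on chromosome 9, 7 within 10 Mb of *Mb21d1* and 3 within 2 Mb. The nearest was *Col12a1* at 1.22 Mb (log2 fold change 0.40, adjusted p 0.0258 by edgeR). The number of tested genes in these windows is not given here, so no share can be set beside the 0.506% over all genes. *Tmem173* had 1 called gene within 2 Mb, and no other member had any. Whether this position has a part in the *Mb21d1* difference was not tested.

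*Tmem173* (ENSMUSG00000024349; chromosome 18, 35893332 to 35900208, minus strand), the cGAMP receptor, had 36, 47 and 40 counts in the E861A libraries and 61, 59 and 60 counts in the *Adar1*+/+ libraries. The levels were 1.25, 1.30 and 1.49 CPM against 1.69, 1.55 and 1.68 CPM. The highest E861A library was just below the lowest *Adar1*+/+ library. Means were 1.34 ± 0.128 CPM and 1.64 ± 0.0773 CPM (SD, n = 3).

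The log2 fold change of *Tmem173* was -0.29 ± 0.18 (SE; 95% interval -0.68 to 0.09; adjusted p 0.721 by edgeR, filterByExpr), and it was -0.23 without E861A replicate 1. Endothelial markers had the same sign. The 6 of them summed to 106 to 128 CPM in E861A and 134 to 159 CPM in *Adar1*+/+ brain. All 6 log2 fold changes were below 0, with none called and a median of -0.32. None of the 6 was at 0 in any group. The sign was not particular to them. Medians were also below 0 for microglial (-0.06), neuronal (-0.04), oligodendrocytic (-0.02) and lymphocyte (-0.02) markers. They were above 0 for astrocytic (0.02) and for border macrophage and monocyte (0.08) markers. The part of any of these lists in the *Tmem173* value was not tested.

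Downstream of STING, the 2 kinases were present at very different levels. *Tbk1* (ENSMUSG00000020115; chromosome 10, 120983511 to 121023850, minus strand), the kinase that phosphorylates STING and IRF3, was the most abundant member, at 45.4, 43.2 and 43.2 CPM in E861A replicates 1 to 3 and 45.5, 45.2 and 44.3 CPM in *Adar1*+/+ replicates 1 to 3. The genotypes overlapped. Its log2 fold change was -0.03 ± 0.05 (SE), and the 95% interval of -0.14 to 0.07 limits any difference to a fold between 0.910 and 1.05.

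*Ikbke* (ENSMUSG00000042349; chromosome 1, 133150920 to 133176183, minus strand), which encodes the related kinase IKK-epsilon, had 95, 88 and 70 counts in E861A brain and 81, 89 and 77 counts in *Adar1*+/+ brain. These were 3.29, 2.43 and 2.61 CPM against 2.24, 2.34 and 2.16 CPM. All E861A libraries were higher, and E861A replicate 1 was the highest of the 6.

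The log2 fold change of *Ikbke* was 0.30 ± 0.15 (SE; 95% interval -0.02 to 0.62; adjusted p 0.574 by edgeR). Without E861A replicate 1, the library with pituitary transcripts, it was 0.17. The part of these transcripts in the *Ikbke* value was not tested.

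*Irf3* (ENSMUSG00000003184; chromosome 7, 52253018 to 52258218, plus strand), the factor that TBK1 activates, was at 13.5, 11.0 and 10.4 CPM in E861A replicates 1 to 3 and 10.3, 9.77 and 10.4 CPM in *Adar1*+/+ replicates 1 to 3. The genotypes overlapped, and the separation of means came mostly from E861A replicate 1. The log2 fold change was 0.19 ± 0.09 (SE; 95% interval -0.01 to 0.39; adjusted p 0.571 by edgeR), and 0.09 without that library. IRF3 is controlled by phosphorylation, which a transcript count does not measure.

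**Figure D2:**
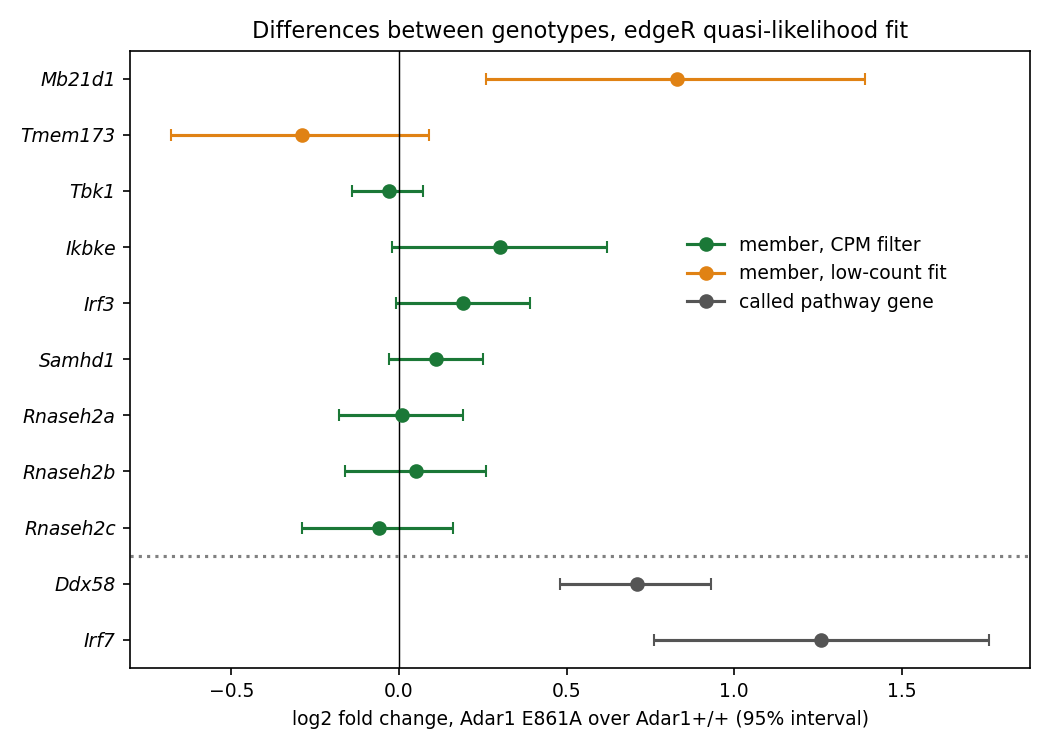
Log2 fold change of E861A over *Adar1*+/+ brain (x axis) with 95% intervals for 9 members and, under the dotted line, 2 genes of the pathway lists that were called. The interval of each of the 7 members from the CPM filter includes 0, that of *Mb21d1* (0.26 to 1.39, low-count fit) does not, and those of *Ddx58* and *Irf7* lie above 0. *Irf7* passed the CPM filter only through its E861A libraries.

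*Trex1* (ENSMUSG00000049734; chromosome 9, 108960447 to 108962852, minus strand) was listed at 0 in all 6 libraries. This zero is not a measurement of its RNA. All 1314 annotated exon bases of *Trex1* lie inside exons of *Atrip* on the same strand, which left 0 bases where a read could be given to *Trex1* alone. *Atrip*, whose product recruits the checkpoint kinase ATR to damaged DNA, spans 108960447 to 108976638 and has 3772 exon bases outside *Trex1*.

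Across the table, 356 genes had no exon base of their own on their strand in GENCODE vM1, and 356 of 356 had 0 counts in every library. A further 155 genes lay wholly inside exons of genes on the opposite strand, and 155 of 155 also had 0 counts. Among the 36783 genes with exon bases free of other genes on both strands, 20.4% had 0 counts. In the GENCODE transcripts, the whole *Trex1* coding sequence of 945 bases was found in 2 of 5 protein-coding *Atrip* transcripts, and 1 of 3 *Trex1* transcripts was wholly contained in one.

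The first 90 coding bases of *Trex1* are given because any read from them matches both genes. They lie at chr9:108961346-108961435 (mm9, minus strand), and the capitals mark the start codon.
Trex1: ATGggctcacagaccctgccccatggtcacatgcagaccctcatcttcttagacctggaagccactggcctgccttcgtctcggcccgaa

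*Atrip* had 448, 490 and 389 counts in the E861A libraries and 558, 509 and 504 counts in the *Adar1*+/+ libraries. Its log2 fold change was 0.02 (95% interval -0.14 to 0.18, adjusted p 0.961 by edgeR). Counting that drops reads shared by 2 genes leaves the *Trex1* bases out of this total, so it gives no level for *Trex1*.

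**Figure D3:**
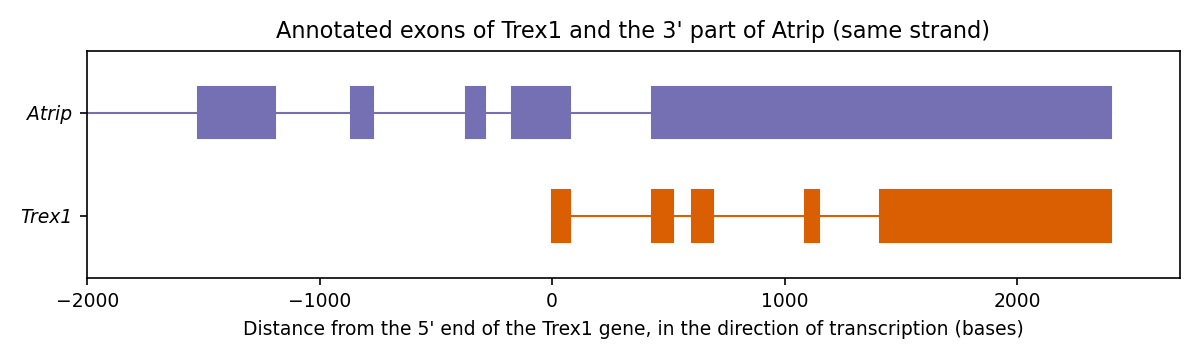
Annotated exons (boxes) of *Trex1* and of the 3′ part of *Atrip*, by distance in bases from the 5′ end of *Trex1* along the shared strand. Each *Trex1* exon lies under an *Atrip* exon, so none of its 1314 exon bases was free.

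*Samhd1* (ENSMUSG00000027639; chromosome 2, 156923265 to 156961001, minus strand), which hydrolyses deoxynucleoside triphosphates, was at 16.8, 17.3 and 17.9 CPM in E861A replicates 1 to 3 and 16.6, 15.8 and 16.0 CPM in *Adar1*+/+ replicates 1 to 3. The genotypes did not overlap, by a narrow margin. Its log2 fold change was 0.11 ± 0.07 (SE; 95% interval -0.03 to 0.25; adjusted p 0.662 by edgeR), and the interval allows a fold of at most 1.19. *Samhd1* and *Ikbke* were the 2 of 7 members without overlap, where 13.8% of all tested genes did not overlap.

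The 3 RNase H2 transcripts overlapped between genotypes. *Rnaseh2a* (ENSMUSG00000052926; chromosome 8, 87480509 to 87493666, minus strand), the catalytic subunit, was at 9.02 ± 0.462 CPM in E861A and 9.01 ± 0.594 CPM in *Adar1*+/+ brain (SD, n = 3). Its log2 fold change was 0.01 ± 0.09 (SE; 95% interval -0.18 to 0.19; adjusted p 0.989 by edgeR), and the sign of so small a value turned when single libraries were left out.

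*Rnaseh2b* (ENSMUSG00000021932; chromosome 14, 62911426 to 62991829, plus strand), an auxiliary subunit and the one most often mutated in Aicardi-Goutieres syndrome, ranged from 6.04 to 6.59 CPM in E861A and from 6.08 to 6.17 CPM in *Adar1*+/+ brain. *Rnaseh2c* (ENSMUSG00000024925; chromosome 19, 5601873 to 5603439, plus strand), the other auxiliary subunit, ranged from 5.62 to 6.17 CPM and from 5.83 to 6.54 CPM. The log2 fold changes were 0.05 ± 0.10 and -0.06 ± 0.10 (SE), with 95% intervals of -0.16 to 0.26 and -0.29 to 0.16. *Rnaseh2b* was at 0.01 without E861A replicate 3, and *Rnaseh2c* at -0.12 without E861A replicate 2 and -0.01 without *Adar1*+/+ replicate 2. These intervals limit the fold to between 0.894 and 1.19 for *Rnaseh2b* and between 0.819 and 1.12 for *Rnaseh2c*.

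Levels between members were compared as CPM per kb of annotated exon, taken as the union over all annotated transcripts of a gene. The order depends on this length. *Ikbke* has 9018 exon bases and *Tmem173* 2302, and by CPM *Ikbke* was the higher in both genotypes. The order of mean levels was *Tbk1* (14.7), *Rnaseh2c* (4.13), *Irf3* (3.42), *Rnaseh2a* (2.57), *Samhd1* (1.83), *Rnaseh2b* (0.997), *Tmem173* (0.648), *Ikbke* (0.278) and *Mb21d1* (0.159), all in CPM per kb over 6 libraries. Neighbours in this order did not overlap within a genotype, except *Rnaseh2c* and *Irf3* in E861A brain. The sensor and adaptor were thus near the bottom of the set and *Tbk1* at the top, in both genotypes.

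Reads over opposite-strand neighbours appear not to be counted. Among the members this overlap matters most for *Rnaseh2c*, where *Kat5* leaves 1032 of 1455 exon bases free. Over free bases only, a scale chosen after the data were seen, *Rnaseh2c* was at 5.83 CPM per kb and still second.

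**Figure D4:**
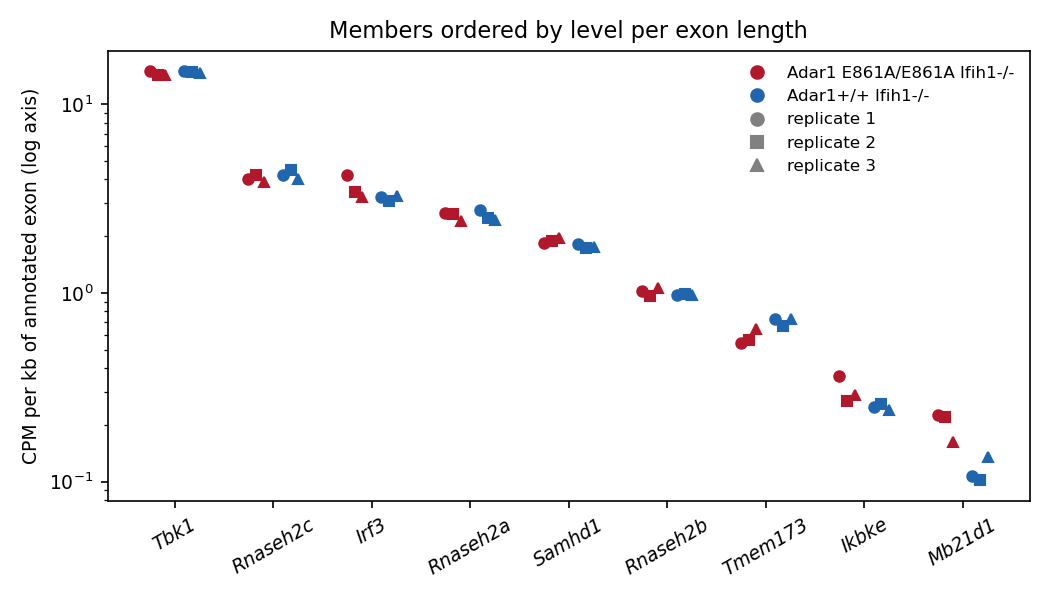
CPM per kb of annotated exon (log y axis) for 9 members in each library, ordered by mean level, with genotype by colour and replicate by shape. *Tbk1* is highest at 14.7 and *Mb21d1* lowest at 0.159 on average, and the order is the same in both genotypes.

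The balance between related members was compared as log2 ratios within a library, which do not depend on library scaling. The size of a ratio depends on the annotated exon lengths, but its difference between genotypes does not. In total 4 ratios were tested by exact two-sided permutation of 3 against 3 libraries, for which 0.1 is the smallest p possible, so no ratio could pass 0.05. An exact two-sided sign-flip test over the 3 same-numbered pairs, for which 0.25 is the smallest p possible, gave 0.5 for *Rnaseh2b* over *Rnaseh2a* and 0.25 for each of the other ratios. The RNase H2 ratios overlapped between genotypes. *Rnaseh2b* over *Rnaseh2a* was -1.34 ± 0.13 in E861A and -1.39 ± 0.10 in *Adar1*+/+ brain (SD, n = 3; exact p = 0.7, adjusted 0.7). *Rnaseh2c* over *Rnaseh2a* was 0.65 ± 0.05 and 0.72 ± 0.12 (exact p = 0.4, adjusted 0.533).

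The kinase ratio, *Ikbke* over *Tbk1*, was -5.36, -5.73 and -5.62 in E861A replicates 1 to 3 and -5.92, -5.85 and -5.93 in *Adar1*+/+ replicates 1 to 3. The genotypes did not overlap, and the difference of means was 0.33 (exact p = 0.1, adjusted 0.2), or 0.22 without E861A replicate 1, which had the highest ratio. With all libraries, *Ikbke* was at 0.0210 of the *Tbk1* level per exon length in E861A brain and at 0.0168 of it in *Adar1*+/+ brain.

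*Tmem173* over *Mb21d1* was 1.26, 1.35 and 1.99 in E861A and 2.77, 2.72 and 2.43 in *Adar1*+/+ brain. All E861A ratios were lower, with a difference of means of -1.11 (exact p = 0.1, adjusted 0.2), or -0.97 without E861A replicate 1. This order and its exact p follow from both genes, which each separated by genotype in opposite directions. The ratio is therefore not a separate result. In linear terms the adaptor exceeded the sensor by a factor of 2.90 in E861A and of 6.24 in *Adar1*+/+ brain. *Tmem173* had at most 61 counts in a library and *Mb21d1* as few as 16, which sets the precision of this ratio.

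**Figure D5:**
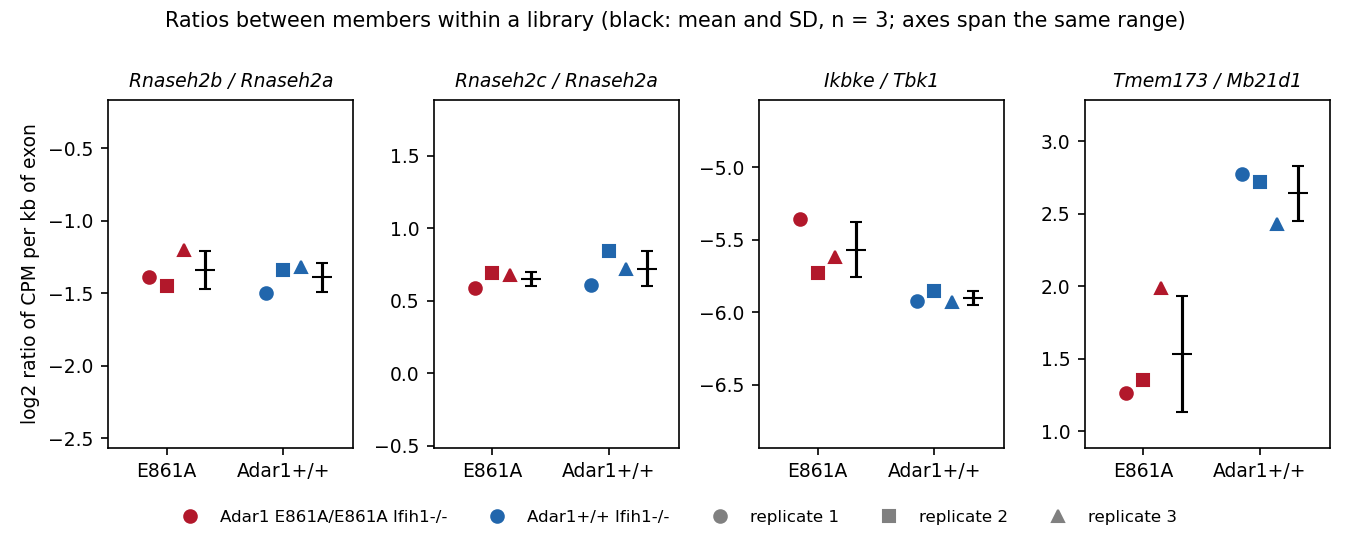
Log2 ratio of CPM per kb of exon between pairs of members in each library (y axes, all of the same span), by genotype, with mean and SD of 3 libraries in black. The ratios within RNase H2 overlap between genotypes, *Ikbke* over *Tbk1* is higher in E861A brain, and *Tmem173* over *Mb21d1* is lower (1.53 against 2.64). The order of the last follows from the separation of its genes in opposite directions.

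The genes around the members were read from 10 lists. Of their 119 distinct genes, 80 were tested, and 3 were called, all higher in E861A brain. Over all 13649 genes tested, 0.506% were called. The lists were written with earlier results of these data known, so these counts do not test them. The median log2 fold change over the 80 was 0.01. Among the called genes, *Irf7* and *Ddx58* are induced by interferon, and *Irf7* passed the CPM filter only through its E861A libraries.

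On the DNA sensing side, none of the lists had a called gene among those tested. Of 16 other DNA sensors and cGAS cofactors, 11 were tested and 5 had a log2 fold change above 0. The 3 most abundant per exon length were *Pqbp1*, a cofactor that links retroviral DNA to cGAS (log2 fold change -0.18, 95% interval -0.33 to -0.03, adjusted p 0.467), the DEAD-box protein *Ddx41* (0.02) and *G3bp1*, which aids DNA binding by cGAS (0.07). *Zbp1*, a sensor of Z-form nucleic acid that failed the CPM filter and was singled out after its values were seen, was called in the low-count fit (log2 fold change 2.88 ± 0.41 SE, adjusted p 0.00103). It had 21, 38 and 30 counts in the E861A libraries and 7, 1 and 6 counts in the *Adar1*+/+ libraries. *Zbp1* passed filterByExpr only through its E861A libraries, the group where it is high, so its call is not separate support.

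Of 9 genes for cGAMP breakdown and transport, 7 were tested with a median of -0.04. The most abundant were the gap junction gene *Gja1* (0.01) and the volume-regulated channel genes *Lrrc8a* (-0.07) and *Lrrc8c* (-0.04), as log2 fold changes. Of 16 genes for STING trafficking and regulation, 14 were tested with a median of -0.05. The ubiquitin ligase *Trim32* differed by 0.00, with a 95% interval of -0.09 to 0.10. *Insig1*, an endoplasmic reticulum protein of sterol control, was at -0.18 (95% interval -0.33 to -0.03, adjusted p 0.462).

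By their medians, the nuclease and nucleotide lists were close to 0 as well, which does not describe every single gene. Of 14 other nucleases, 8 were tested with a median log2 fold change of 0.01, among them the lysosomal exonuclease *Pld3* (-0.03), the exosome helicase *Skiv2l* (-0.07) and the mitochondrial *Pnpt1* (0.04). Of 10 genes of deoxynucleotide metabolism, 9 were tested with a median of -0.02, among them *Tk2* (-0.03), *Rrm2b* (0.01) and *Dck* (0.01). *Lsm11*, a histone pre-mRNA processing factor and a further Aicardi-Goutieres gene, was at -0.11 (95% interval -0.25 to 0.02).

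Among 14 partners of TBK1 and IKK-epsilon, 13 were tested and 1 was called, where 0.506% of all tested genes were. *Irf7*, an interferon-induced relative of *Irf3*, was at 2.94, 3.31 and 3.84 CPM in E861A replicates 1 to 3 and 1.91, 0.762 and 1.57 CPM in *Adar1*+/+ replicates 1 to 3. Its log2 fold change was 1.26 ± 0.23 (SE, adjusted p 0.0225 by edgeR). *Irf7* passed the CPM filter only through the E861A libraries, because every *Adar1*+/+ library was under 2 CPM. It was not tested when all 6 libraries had to reach 2 CPM. The call was lost without E861A replicate 3 (1.15, adjusted p 0.322) and without *Adar1*+/+ replicate 3 (1.34, adjusted p 0.0824). The interval of *Irf7*, 0.76 to 1.76, lay above that of *Irf3*, -0.01 to 0.39, though the difference between the genes was not tested.

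Of 10 RNA sensor genes, 7 were tested, 6 had a log2 fold change above 0 and 1 was called, where 0.506% of all tested genes were. This was *Ddx58*, which encodes the RNA sensor RIG-I, at 8.80 ± 0.821 CPM in E861A and 5.38 ± 0.166 CPM in *Adar1*+/+ brain (SD, n = 3; log2 fold change 0.71 ± 0.10 SE, adjusted p 0.00307 by edgeR). The list's median was 0.11. Of 13 genes for the interferon receptor, JAK-STAT signalling and IRFs, 11 were tested, 9 were above 0, and 2 were called. These include *Irf7*, already counted among the partners of TBK1, and the same share of 0.506% stands beside them. The list's median was 0.24.

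Transcripts of type I interferons, the output of the pathway, were at or near 0. Of 17 genes, 9 had 0 counts in all 6 libraries, 7 had at most 3 counts in any library, and 1, *Ifnk*, had 8 to 24 counts. *Ifnk* differed by 0.41 ± 0.39 (SE; adjusted p 0.829 by edgeR, filterByExpr). *Ifnb1*, named here as the gene IRF3 is known for, was among those at 0 and has 770 exon bases free of other genes. A count of 0 allows up to 3 counts, or 0.112 CPM in the least deep library. The *Ifna* genes are near-identical copies, between which reads could have been lost.

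Other cell types that could carry the members were checked by marker lists. Microglial markers summed to 175 to 188 CPM in E861A and 189 to 191 CPM in *Adar1*+/+ brain, with 10 of 10 tested, 0 called and a median log2 fold change of -0.06. Lymphocyte markers summed to 4.17 to 4.78 CPM and 4.06 to 4.48 CPM, with 1 of 7 tested. Markers of border macrophages and monocytes summed to 12.1 to 14.7 CPM and 11.1 to 14.1 CPM, with 2 of 6 tested. None of the 23 had 0 counts in all libraries, and their part in the member values was not tested. Neuronal, astrocytic and oligodendrocytic markers, which define brain tissue, were high in all libraries, with none of 13 called. Like the microglial sums, the neuronal sums were lower in E861A brain without overlap (3660 to 3770 against 3780 to 3850 CPM). Astrocytic sums were higher without overlap (824 to 875 against 800 to 821 CPM).

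Promoters of the members were searched for short cores of the interferon response. RefSeq promoters (GRCm38.p6, 250 bases before to 50 after the start) were found for 8 of 10 members, and not for *Tmem173* and *Rnaseh2b*. The IRF core TTCNNTTTC, with its reverse complement GAAANNGAA, was in 0 of the 8 members and in 8.56% of all 32851 promoters. The palindromic STAT core TTCNNNGAA was in 2 of the 8 and in 8.30% of all promoters. Among the called genes, *Ddx58* held the IRF core and *Irf7* held neither.

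The stretches around the cores are printed for the 2 members that hold one and for *Ddx58* as a called gene, with the core in capitals. They lie on the minus strand at chr2:157135278-157135346, chr8:84966047-84966105 and chr4:40239796-40239867 (GRCm38.p6), and the cores start 235 bases before the start in *Samhd1*, and at bases 17 and 4 of the transcript in *Rnaseh2a* and *Ddx58*.
Samhd1: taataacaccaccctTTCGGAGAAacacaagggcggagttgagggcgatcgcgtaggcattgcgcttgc
Rnaseh2a: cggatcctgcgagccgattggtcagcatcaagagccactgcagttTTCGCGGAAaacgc
Ddx58: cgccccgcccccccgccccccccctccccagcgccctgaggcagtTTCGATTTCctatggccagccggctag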

How the data were processed

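The authors trimmed reads with Trimmomatic 0.36, aligned them to mm9 with STAR 2.5.2a, per the labels and methods, and deposited raw counts per gene. The strand setting was not given in the sources used here. Kits were stranded, but 155 of 155 genes inside opposite-strand exons held 0 counts, as counting without strand would give. Synthetic spike-ins were added before ribosome depletion. The deposited CPM tables were not used, nor was the deposited comparison table, which holds the authors' fold changes and false discovery rates.

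Members were matched by symbol, and identifiers to GENCODE vM1 (NCBIM37). CPM used column totals. Genotypes were compared over the whole table in R 4.3.3 with edgeR 4.0.16 (TMM, quasi-likelihood test, Benjamini-Hochberg), checked on simulated counts. That check changed only genes more abundant than *Mb21d1*, *Tmem173* and *Ikbke*, and it did not cover the low-count fit. Intervals are t intervals of the fit. Named are all members, the called genes of each list or else at most the 3 most abundant per exon length, and *Adar* and *Ifih1*, except that some of these genes are not reported here. Members, lists and tests were chosen with earlier results of these data known. Alternatives used DESeq2 1.42.0, limma 3.58.1, other scalings and filters, the replicate block and omission of each library. Deviations of same-numbered libraries correlated at r of 0.225, 0.336 and 0.116, and those of libraries with different numbers at -0.259 to 0.0505. Deviations were taken from the mean of each genotype, so these correlations depend on one another and do not establish pairs. The labels state no pairing of animals, and numbers were taken as pairs only as an alternative. Main fits and tests are unpaired, and the paired forms are alternatives.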

Additional observations from a re-analysis of the deposited data

How the results depend on the processing

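No member was called under any alternative in either fit. The count of called genes moved from 69 to 139 with the likelihood ratio test, 110 with filterByExpr, 376 without a filter, 42 when all 6 libraries had to reach 2 CPM, and 42 to 113 when single libraries were left out (42 without E861A replicate 3, 113 without E861A replicate 2, 108 without *Adar1*+/+ replicate 2). With the replicate number as a block it was 158, and the block changed no member's call. Pathway genes called were 3, but 7 without a filter, 5 with the replicate block and 2 to 4 with a library left out. The *Rnaseh2a* log2 fold change turned sign at -4.7e-05 (filterByExpr), -0.0034 (no filter), -0.0032 (without E861A replicate 1), -0.02 (without E861A replicate 2) and -0.03 (without *Adar1*+/+ replicate 3), within a range of -0.03 to 0.05 with a library left out. The cause was not tested. The ratio of *Rnaseh2b* over *Rnaseh2a*, 0.04 also in paired form, ranged from -0.03 to 0.10 with a library left out. It turned to -0.03 without E861A replicate 3 and to -0.01 without *Adar1*+/+ replicate 1. The other 3 ratios kept their sign (-0.13 to -0.01, 0.22 to 0.41 and -1.34 to -0.97), as did the other members. *Mb21d1* ranged from 0.74 to 0.96 and *Ikbke* from 0.17 to 0.39. The adjusted p of *Mb21d1* ranged from 0.186 to 0.913 over tests, filters and scalings. Scaling alternatives of the low-count fit were added after seeing the data. Depth limits *Mb21d1* and *Tmem173* most.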
